A study of Oryza sativa with 6 samples.

Results

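The response of the susceptible rice line to 48 h of brown planthopper (BPH) feeding was examined as the pair PC-48/PC-0. PC is 9311, a susceptible indica variety and the recurrent parent of P15, a resistant line that carries BPH15 by introgression. PC-0 was not infested and PC-48 carried 8 BPH nymphs per seedling for 48 h. Each is 1 library from the pooled tissue of 30 plants, so nothing below has a replicate check, and the spread between plants of a group is unknown. The labels give leaf sheaths of 3-week-old plants at the 4-leaf stage, whereas the paper takes stems from seedlings of 2 weeks with 2 leaves. PC-6 and the 3 P15 libraries at 0, 6 and 48 h are given beside PC where they show a course or another line.

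Known rice miRNAs were taken by their osa- names, and entries with 1 mature sequence were counted once, with the reads of the entry that had most. The 464 entries held 337 sequences, and 308 of them had a read in PC-0 or PC-48. Of these, 258 were read in both libraries. The library totals behind TPM (reads scaled to a common library total) were 1343912 reads in PC-0 and 1283295 in PC-48. A count of 0 allows up to 3 reads, which is 2.23 TPM in PC-0 and 2.34 TPM in PC-48. A fold change is the quotient of the TPM values, given with its exact 95% counting interval. Intervals and the 3-read limit cover counting error only. Up- or down-regulated means a log2 fold change of 1 or more in size together with P under 0.05, unadjusted, in edgeR's exact test with dispersion 0, after the thresholds of the study. Such a test compares the reads of these 2 libraries and not the conditions. In pooled tissue, a change in the amount of a miRNA per cell and a change in the number of cells that make it cannot be told apart.

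A plant miRNA is typically, though not always, cut by DCL1 from a hairpin as a duplex. The guide strand of the duplex is loaded into an Argonaute protein and the star strand is usually degraded. The guide directs cleavage or translational repression of mRNAs with near-complementary sites. Several conserved families track mineral nutrition: miR395 accumulates when sulfate is short, miR399 and miR827 when phosphate is short, and miR397, miR398, miR408 and miR528 when copper is short. BPH feeds on phloem sap, the same stream in which such nutrients, sugars and some miRNAs move.

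In PC-48/PC-0, 6 sequences were up-regulated (1.95% of the 308) and 19 were down-regulated (6.17%), 25 in all (8.12%). The up-regulated ones were the copper miRNAs miR398b and miR528-5p, miR528-3p, both strands of miR1320 and miR166c-5p. The down-regulated ones comprised miR399d, miR399j and miR399a, the main miR395 sequence, 10 star strands of conserved families, and miR3980a-3p, miR812t, miR3979-5p, miR1846e and miR1850.1. The remaining 283 sequences, among them all of the 10 most abundant, were not called. Among the 151 sequences with at least 20 reads in either library, 4 were up-regulated (2.65%) and 16 down-regulated (10.6%). The ratio was below 1 for 167 of the 308 (54.2%) and for 91 of the 151 (60.3%). With TMM the numbers were 8 up and 12 down, and with median-of-ratios 8 up and 14 down. The median log2 fold change of the 308 was -0.08 with the library totals, 0.05 with TMM, 0.01 under median-of-ratios and -0.19 when the clean reads served as totals, and changes below are relative to it.

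**Figure D1:**
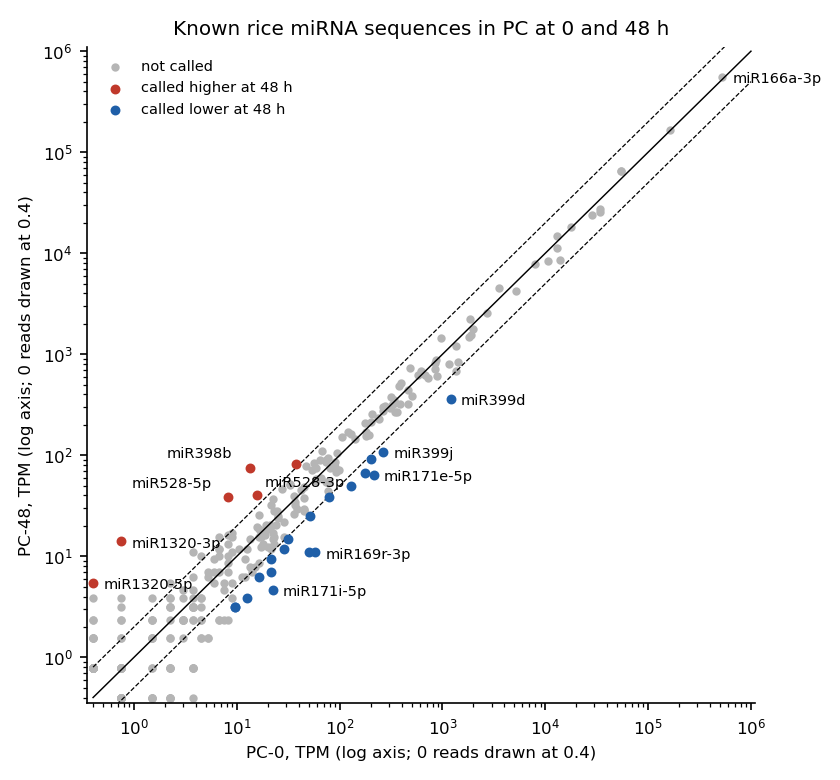
TPM of each of the 308 known sequences in PC-0 (x axis) and PC-48 (y axis), both on log axes, with equality as a solid line and 2-fold as dashed lines. The 6 up-regulated sequences (red) lie below 100 TPM, the 19 down-regulated ones (blue) reach from under 10 TPM to miR399d at 1197 TPM in PC-0, and miR166a-3p and the other abundant sequences lie near equality.

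The sequences that carry these changes are printed here as in the deposited table, 5′ to 3′ as DNA letters, with the seed (bases 2 to 8) in capitals. The first set is the guides of nutrient families, shown because the miR399 members share a seed and differ from each other at 1 or 2 bases, so that they may share reads.
miR399a: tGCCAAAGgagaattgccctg
miR399d: tGCCAAAGgagagttgccctg
miR399j: tGCCAAAGgagagttgcccta
miR395g: gTGAAGTGtttgggggaactc
miR398b: tGTGTTCTcaggtcgcccctg
miR528-5p: tGGAAGGGgcatgcagaggag

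The second set is strands whose partners or near relatives behaved differently. miR171d-5p and miR171e-5p differ at 1 base, as do miR166l-5p, which was down-regulated, and miR166a-5p, which was not.
miR171d-5p: tGTTGGCCcggctcactcaga
miR171e-5p: tGTTGGCTcggctcactcaga
miR166a-5p: gGAATGTTgtctggttcaagg
miR166l-5p: gGATTGTTgtctggttcaagg
miR166c-5p: gGAATGTTgtctggtccgag
miR169r-3p: tGGCAAGTctcctcggctacc
miR396c-3p: gGTCAAGAaagctgtgggaag
miR1320-3p: tGTAAAATtcattcgttccaa
miR1320-5p: tGGAACGGaggaattttatag

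Among the called sequences, miR399d lost the most reads. miR399 targets the ubiquitin-conjugating enzyme PHO2, which limits phosphate uptake and transport to the shoot. miR399d had 1609 reads in PC-0 and 467 in PC-48, or 1197 and 363.9 TPM, a ratio of 0.304 (95% counting interval 0.274 to 0.337). miR399j had 357 and 138 reads, a ratio of 0.405 (0.330 to 0.494). miR399a, whose sequence is shared by 3 entries, had 42 and 19 reads, a ratio of 0.474 (0.260 to 0.833), and lost its call under TMM and median-of-ratios. miR399i and miR399k had at most 3 reads in either library and could not be judged at this depth. miR827, which targets SPX-domain phosphate transporters, had 1815 and 885 reads and lay just short of the 2-fold threshold at 0.511 (0.471 to 0.554). The phosphate list had 3 of 6 sequences down-regulated, beside 6.17% over all sequences, and 0 up-regulated. With TMM 2 of the 6 were down-regulated, beside 12 over all sequences, and with median-of-ratios 2, beside 14. When the clean reads served as totals, 4 of the 6 were down-regulated, beside 21 over all sequences. The median log2 fold change of the list was -1.19 with the library totals, beside -0.08 over all sequences. Within each library the miR399d to miR827 ratio, which no scaling changes, was 0.595 (0.522 to 0.678) times as high at 48 h as at 0 h.

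miR399d, miR399j and miR399a were also down-regulated in PC-6/PC-0, a pair in which 10 of 304 sequences were called lower (3.29%) and 2 higher (0.658%). miR399d was at 466.3 TPM in PC-6, miR399j at 125.5 TPM and miR399a at 12.7 TPM, and these ratios to PC-0 share the PC-0 library with those at 48 h. In P15, whose libraries are separate, miR399d was 0.506 (0.465 to 0.550), miR399j 0.620 (0.536 to 0.717) and miR399a 0.507 (0.299 to 0.832) times as high at 48 h as at 0 h. The PC ratio of miR399d was 0.601 (0.526 to 0.686) times that of P15. At 0 h PC had less miR399d than P15, at 1197 against 1403 TPM.

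The targets of miR395 are a sulfate transporter and ATP sulfurylases, and the family had 4 mature sequences, of which 3 were read in PC. The one shared by 16 entries, named here miR395g, had 39 reads in PC-0, 15 in PC-6 and 15 in PC-48, so that it was as low at 6 h as at 48 h. Its ratio in PC-48/PC-0 was 0.403 (0.206 to 0.747). The 16 entries are 1 sequence and 1 observation. The other miR395 sequences had at most 1 read. In P15 the ratio of miR395g was 0.502 (0.280 to 0.867), and the PC ratio was 0.802 (0.362 to 1.78) times that of P15, an interval that includes 1.

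The copper miRNAs moved the other way. miR398b, which targets copper/zinc superoxide dismutases, had 18 reads in PC-0, 16 in PC-6 and 96 in PC-48, a ratio of 5.59 (3.35 to 9.82) in PC-48/PC-0. The increase lay after 6 h. miR528-5p, a monocot miRNA that targets an ascorbate oxidase and other copper proteins, had 11, 22 and 50 reads at 0, 6 and 48 h, a ratio of 4.76 (2.45 to 10.1). The other strand, miR528-3p, had 21, 28 and 52 reads, a ratio of 2.59 (1.54 to 4.53), so both strands of that hairpin were up-regulated. miR528-3p is counted as a star below, although it had more reads than miR528-5p in each PC library.

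The other copper families were not called. miR408-3p, which targets plantacyanins and laccases, had 72 and 91 reads, a ratio of 1.32 (0.961 to 1.83). miR397a, which targets laccases, had 8 and 12 reads, a ratio of 1.57 (0.591 to 4.43). miR397b and miR398a had at most 3 reads in either library. In the copper list 2 of 6 guide sequences were up-regulated under each of the 4 scalings, beside 1.95% over all sequences, and 0 were down-regulated. The median log2 fold change was 1.09 over the 6 and 2.24 over the 3 with at least 20 reads, beside -0.08 and -0.09 over all sequences. The miR398b to miR408-3p ratio within a library was 4.22 (2.34 to 7.62) times as high in PC-48 as in PC-0, so these families did not change alike. In P15 miR398b and miR528-5p had the same reads as each other, 18 at 0 h and 28 at 48 h, a ratio of 2.06 (1.10 to 3.95). The PC ratio was 2.72 (1.25 to 5.91) times that of P15 for miR398b and 2.32 (0.959 to 5.59) times for miR528-5p, the latter an interval that includes 1.

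**Figure D2:**
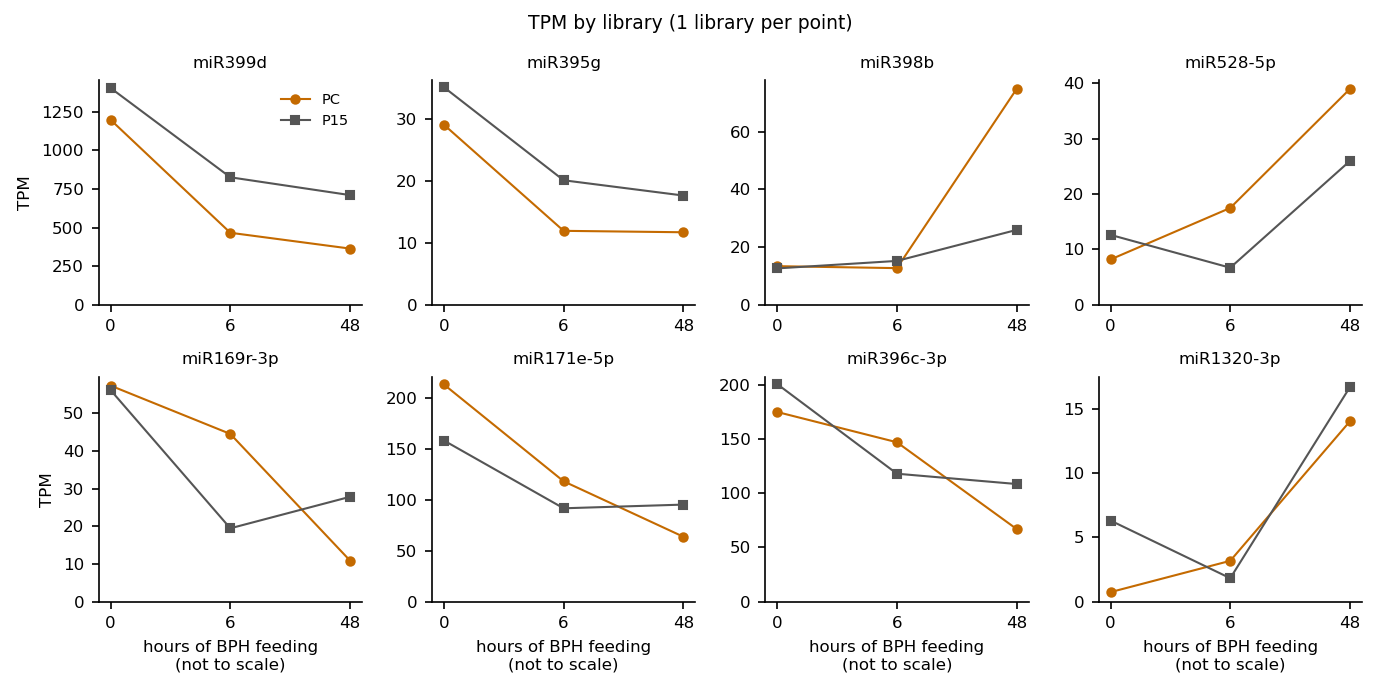
TPM of 8 called sequences (y axis, starting at 0) at 0, 6 and 48 h of feeding (x axis, not to scale) in PC (circles) and P15 (squares), 1 library per point and therefore without error bars. miR399d and miR395g in PC fell by 6 h and stayed low, miR398b was at 12.7 TPM at 6 h and 74.8 TPM at 48 h, and miR169r-3p in PC went from 44.5 TPM at 6 h to 10.9 TPM at 48 h.

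Both strands of miR1320 were called from few reads. miR1320-3p had 1 read in PC-0, 4 in PC-6 and 18 in PC-48, a ratio of 18.9 (2.98 to 785). miR1320-5p had 0, 2 and 7 reads, at least 2.44-fold higher in PC-48 against the 3-read limit of PC-0. Neither reached 20 reads, and the width of the first interval shows how little the size of the change is fixed. In P15 miR1320-3p had 9 reads at 0 h and 18 at 48 h.

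A strand was taken as the star by a fixed arm for each family and not by its reads. Star strands made up 12 of the 25 called sequences and 44 of the 308 tested, out of 45 star sequences of conserved families. Of these 44, 10 were down-regulated, beside 6.17% over all sequences, and 2 up-regulated, beside 1.95%. With TMM the numbers were 7 and 2, and with median-of-ratios 8 and 2. Their median log2 fold change was -0.31, beside -0.08 over all sequences and -0.04 over the guide strands of all lists. With at least 20 reads in either library it was -0.18, beside -0.09 over all such sequences. Of the 111 guide sequences read, 6 were down-regulated and 2 up-regulated. These guides include the less conserved and panicle trigger lists, in which no strand was set apart as a star. Both strands of miR3980 thus count as guides, and miR3980a-3p and miR812t are among the 6. Of the 35 stars with at least 20 reads, 22 had a ratio below 1 and 13 above 1, near the 60.3% below 1 of all 151 such sequences.

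miR169r-3p, the star of an NF-YA-targeting family, fell most, from 77 reads in PC-0 and 56 in PC-6 to 14 in PC-48, a ratio of 0.190 (0.0995 to 0.339). miR171e-5p had 287, 149 and 82 reads at 0, 6 and 48 h, a ratio of 0.299 (0.231 to 0.384). miR171i-5p had 30, 38 and 6 reads, a ratio of 0.209 (0.0713 to 0.511), beside 29, 21 and 15 reads of its guide miR171i-3p. With miR171d-5p, at 69 and 32 reads, 3 of the 4 miR171 star sequences read in PC were down-regulated. Of the 4 guides of miR171, which target GRAS factors, 0 were called. One of these guides, miR171a, had 0 reads in PC-0 and 1 in PC-48 and could not be judged. The guide miR171i-3p had a ratio of 0.542 (0.270 to 1.04). The miR171i-5p to miR171i-3p ratio at 48 h was 0.387 (0.132 to 1.13) times that at 0 h, an interval that includes 1. Under TMM and median-of-ratios, miR171d-5p lost its call.

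Among other stars, miR396c-3p had 235 reads in PC-0 and 86 in PC-48, a ratio of 0.383 (0.296 to 0.493). miR167a-3p had 172 and 63 reads, a ratio of 0.384 (0.283 to 0.515), miR167c-3p 22 and 8 reads, and miR160f-3p 29 and 9 reads. miR167 and miR160 guides target auxin response factors. The 10 miR166 stars did not move together. miR166k-5p had 269 and 119 reads, a ratio of 0.463 (0.370 to 0.577), and miR166l-5p 106 and 50 reads, a ratio of 0.494 (0.346 to 0.698). Both kept this direction but lost their calls with TMM, and miR166l-5p also with median-of-ratios. miR166c-5p rose from 51 reads in PC-0 and 85 in PC-6 to 106 in PC-48, a ratio of 2.18 (1.54 to 3.10), and the other 7 were not called. miR166l-5p and miR166a-5p differ at 1 base of 21, and the ratio of the first to the second within a library was 0.422 (0.289 to 0.616) times as high at 48 h as at 0 h.

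A star strand and its guide come from 1 hairpin, so their ratio within a library does not depend on the scaling. Both strands could be paired for 35 star sequences with at least 20 reads, with the guide taken by its mature sequence, which other hairpins can share. The 35 stars have 22 guide sequences. The star to guide ratio was lower in PC-48 than in PC-0, with a counting interval under 1, for 10 stars and higher, with an interval over 1, for 8. For 17 the interval included 1.

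The largest decreases were those of miR171e-5p against its guide, at 0.250 (0.190 to 0.331) times the ratio of 0 h, and of miR169r-3p, at 0.264 (0.138 to 0.503) times. The miR171 guide paired with miR171e-5p had 425 reads in PC-0 and 485 in PC-48, a ratio of 1.20 (1.05 to 1.37) that was not called. The guide miR169r-5p had 100 and 69 reads. The increases included miR390-3p at 2.05 (1.53 to 2.75) times, miR166c-5p at 2.02 (1.45 to 2.82) times and miR393b-3p at 1.81 (1.65 to 1.99) times. miR390 starts the TAS3 pathway that restrains auxin response factors, and miR393 targets auxin receptors of the TIR1 and AFB type. In P15 the star to guide ratio was below its 0 h value for 6 of the 10 that were lower in PC, with an interval under 1 for 2 of them, miR171e-5p and miR171d-5p, and above for 7 of the 8 that were higher in PC.

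**Figure D3:**
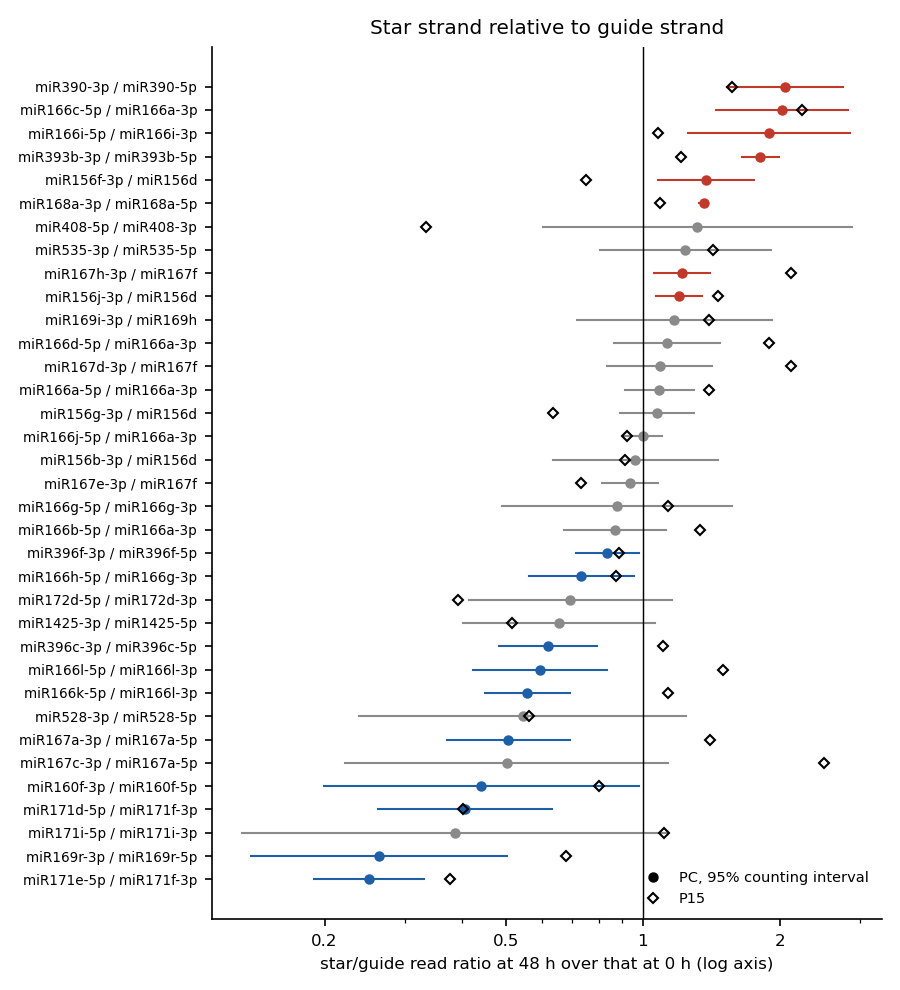
Star to guide read ratio at 48 h over that at 0 h (x axis, log) for 35 pairs named star / guide, with 95% counting intervals for PC and open diamonds for P15. In PC 10 pairs lie below 1 (blue) and 8 above 1 (red) with intervals that leave out 1, from miR171e-5p at 0.250 to miR390-3p at 2.05.

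Of the sequences outside these groups, miR3980a-3p fell most, from 68 reads in PC-0 and 38 in PC-6 to 14 in PC-48, a ratio of 0.216 (0.112 to 0.387). The opposite strand of the same hairpin, miR3980a-5p, had 30 and 47 reads, and the 3p to 5p ratio was 0.131 (0.0630 to 0.274) times as high at 48 h. miR3979-5p had 29 reads in PC-0, 54 in PC-6 and 12 in PC-48, a ratio of 0.433 (0.201 to 0.876) in PC-48/PC-0. That call was lost at a biological coefficient of variation of 0.2. In PC-6/PC-0 the ratio of miR3979-5p was 1.99 (1.24 to 3.24) and was not called. miR812t, a 24-nt sequence shared by 3 entries, had 17 and 5 reads and lost its call with TMM. miR1846e and miR1850.1 each had 13 and 4 reads, a ratio of 0.322 (0.0765 to 1.04). Their intervals include 1, and both lost their calls under TMM and median-of-ratios. In the less conserved list 2 of 25 sequences were down-regulated, near the 6.17% over all sequences, and 0 were up-regulated. miR1862d had 1835 and 1560 reads, a ratio of 0.890 (0.832 to 0.953), and miR1862a, miR1861b and miR6249a had ratios between 1.05 and 1.14.

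**Figure D4:**
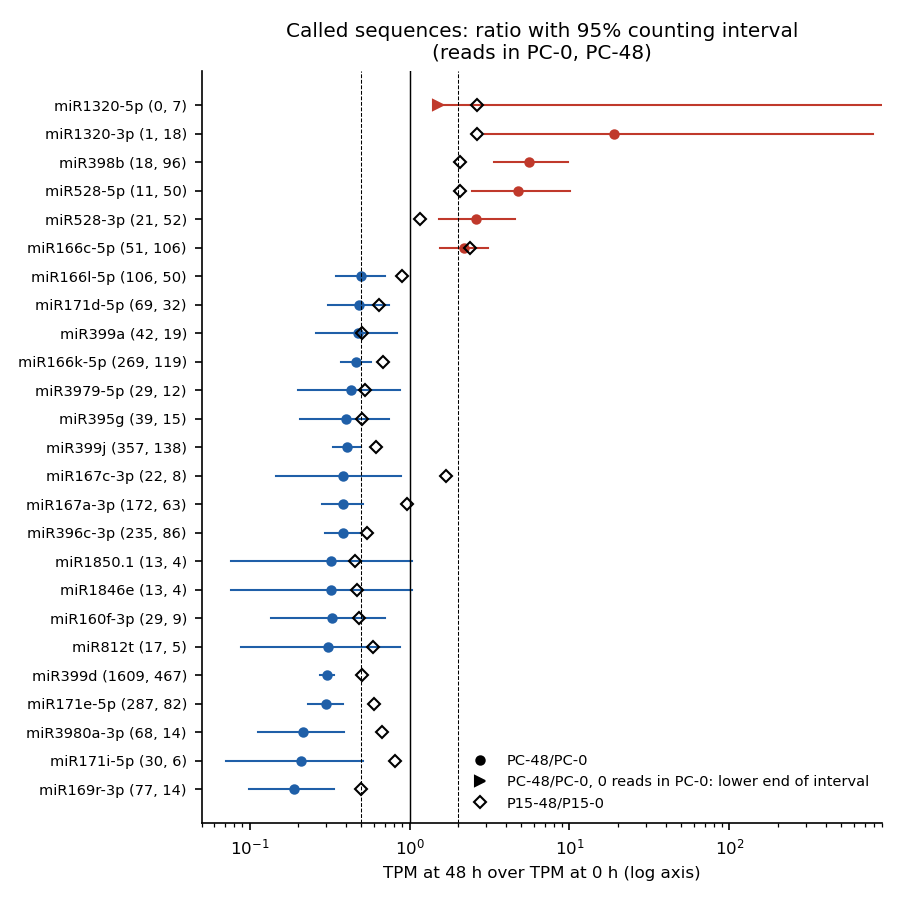
TPM ratio of PC-48 to PC-0 (x axis, log) for the 25 called sequences, with 95% counting intervals, the reads in both libraries beside each name, and the ratio of P15-48 to P15-0 as open diamonds. The interval is narrow for miR399d (0.274 to 0.337) and wide for miR1320-3p (2.98 to 785). That of miR1320-5p starts at 1.51 and has no upper end. The P15 ratio of each of the 19 down-regulated sequences except miR167c-3p lies below 1.

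Guides that act on regulators of development were not called. miR166a-3p alone took 52.1% of the library total in PC-0 and 56.1% in PC-48. The 337 sequences together held 1361840 reads in PC-0, above its library total of 1343912. Some reads may thus be counted under more than 1 sequence, and such shares can overlap. miR166a-3p targets HD-ZIP III factors, which set leaf polarity and vascular pattern, and its ratio was 1.08 (1.07 to 1.08). miR156d, which targets SPL factors and keeps plants juvenile, had a ratio of 0.795 (0.784 to 0.806), and miR172d-3p, which acts on AP2-like factors in older plants, 0.906 (0.659 to 1.24). miR168a-5p, which targets AGO1, had a ratio of 0.754 (0.744 to 0.765), and miR162a, which targets DCL1, 0.811 (0.783 to 0.840).

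miR396, which targets growth-regulating factors, held sequences that moved apart. miR396f-5p had 73266 reads in PC-0 and 83435 in PC-48, a ratio of 1.19 (1.18 to 1.20). miR396e-5p, whose sequence overlaps that of miR396f-5p, had nearly the same reads, so the pair may be the same molecules counted again. miR396c-5p had 18648 and 11006 reads, a ratio of 0.618 (0.604 to 0.633). The miR396c-5p to miR396f-5p ratio within a library was 0.518 (0.505 to 0.532) times as high at 48 h as at 0 h. Both miR396c strands were lower in PC-48, the 3p strand by more.

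In the auxin list 6 of 8 sequences had a ratio below 1, beside 60.3% of all sequences with at least 20 reads, and 0 were called. Among the 6, miR393b-5p is miR393a with a further base at its 3′ end. They had 2549 and 2460 reads in PC-0, so they may share reads and not be separate observations. miR390-5p was at 0.682 (0.622 to 0.747), miR167f at 0.787 (0.768 to 0.807) and miR393a at 0.805 (0.757 to 0.855), whereas miR160c-5p was at 1.23 (1.05 to 1.45) and miR160e-5p at 1.41 (1.15 to 1.74). In the MADS list, miR444b.2 was at 1.28 (1.23 to 1.33) and miR444d.3 at 0.646 (0.417 to 0.989). miR164b, which targets NAC factors, was at 1.29 (1.15 to 1.46), and miR1432-5p, which targets an EF-hand protein, at 1.44 (1.15 to 1.80). In the NF-YA list, miR169g was at 1.65 (1.26 to 2.17) and miR169n at 0.537 (0.297 to 0.943), 1 base apart in sequence. miR169f.2 had 9 and 20 reads and a log2 fold change of 1.21 but did not pass the P threshold. The SPL, AP2, MYB and TCP, NAC, HD-ZIP III, NF-YA, GRAS, GRF, MADS, F-box, PPR, EF-hand and miRNA pathway lists had 0 calls. The panicle triggers miR2118 and miR2275, which belong to reproductive tissue, had 140 and 6 reads in PC-0 and 141 and 3 in PC-48.

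**Figure D5:**
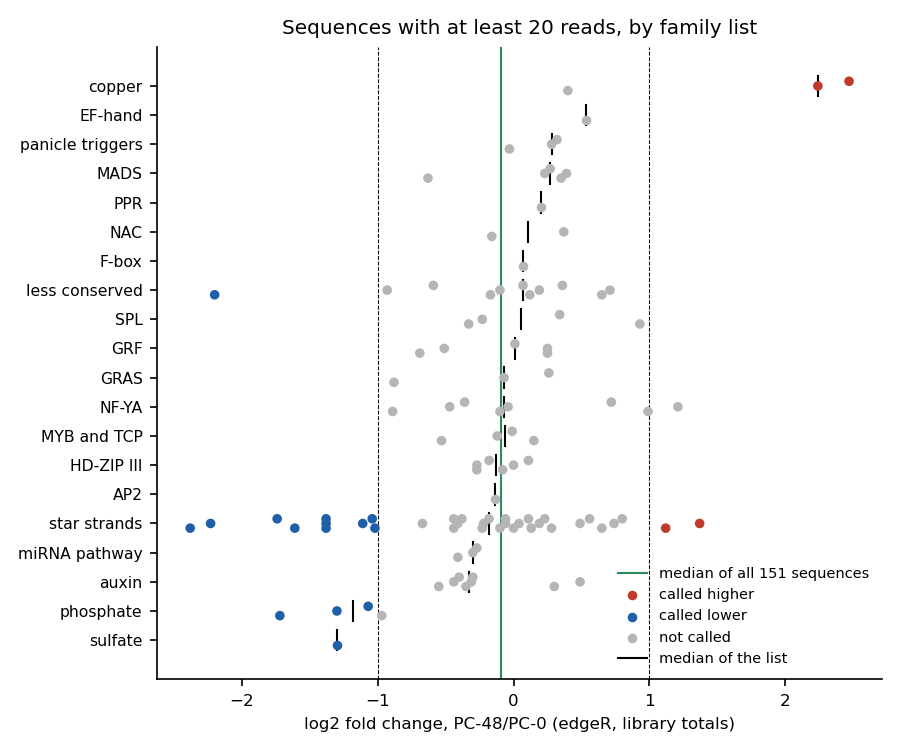
log2 fold change in PC-48/PC-0 (x axis) of the sequences with at least 20 reads in either library, grouped by family list (y axis), with the list median as a black bar and the median of all 151 such sequences in green. The copper list lies highest and the sulfate and phosphate lists lowest, and star strands spread from -2.38 to 1.37.

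The called sequences shared few features beyond their families. Of the 19 that were down-regulated, 14 were 21 nt long and 8 began with U (T in the printed letters), and of the 6 up-regulated 5 were 21 nt and 4 began with U. Over all 308, 162 were 21 nt and 143 began with U. Of the 73 sequences of 24 nt, 1 was called. The 19 down-regulated sequences had 17 different seeds, and the only shared seed was that of miR399a, miR399d and miR399j. In P15-48/P15-0, whose libraries are separate from those of PC, 18 of the 19 and 6 of the 6 lay on the same side of 1 as in PC. Of the 151 sequences with at least 20 reads, 65.6% did. The sets are not alike, since most of the 151 were not called and smaller changes cross 1 more easily. Also, 3 of the 19 and 2 of the 6 had under 20 reads in both PC libraries. In that pair 2 of the 19 and 4 of the 6 passed the thresholds, where 3.30% and 2.97% of 303 sequences were called lower and higher.

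A fit with residual degrees of freedom was possible only over both lines. The additive model of line and time on all 6 libraries, with edgeR's quasi-likelihood test, called 0 of 181 sequences for 48 h against 0 h at a Benjamini-Hochberg adjusted p under 0.05, and 29 had an unadjusted p under 0.05. DESeq2 called 1, miR399d. The smallest p of the edgeR fit was that of miR399d, at a log2 difference of -1.28 (standard error 0.25, adjusted p = 0.146), lower at 48 h in 2 of 2 lines. miR398b had a difference of 1.98 (standard error 0.55, adjusted p = 0.202) and miR528-5p of 1.68 (standard error 0.44, adjusted p = 0.202). The fit takes a difference between the responses of the lines as error, and leaving out P15-6 gave 13 calls, PC-6 9 and P15-0 5, while leaving out any other library gave 0.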

How the data were processed

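Small RNAs of 6 libraries, PC and P15 at 0, 6 and 48 h, were sequenced by the authors, who removed reads under 18 nt and other RNA classes and matched the rest to miRBase release 21. The sources used here do not name the aligner. Deposited by the authors were a read count per entry and library and the same count as TPM, with 0 reads written as 0.01. Library totals were computed back from both columns and gave every TPM of entries with at least 50 reads within 0.000123 percent. Per-sample columns belonging to other samples numbered 0. No reference sequence was used.

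Of entries with 1 mature sequence, the one with most reads over the 6 libraries was kept. PC-48/PC-0 was tested with edgeR 4.0.16 (exactTest, dispersion 0, prior count 0.125) in R 4.3.3. The additive fit used edgeR's quasi-likelihood method with TMM, 2 residual degrees of freedom and a common dispersion of 0.0349, and DESeq2 1.42.0 was the second tool. Counting intervals are exact (Clopper-Pearson) for a TPM ratio and on the log scale for a ratio of ratios. Other steps used scipy 1.17.1, pandas 2.3.3, numpy 2.4.6 and matplotlib 3.10.9 under Python 3.11.15, and the steps were tested on simulated data. Named miRNAs were every called sequence, the 10 most abundant, members of the lists with at least 20 reads and those the paper names for PC at 48 h, and not all are printed. Members, lists and rules were chosen with earlier results of these data known. The star to guide ratios and other ratios within a library were added after their values were seen, as were the counts without star strands and without the miR166 guides in the totals.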

Additional observations from a re-analysis of the deposited data

Results flagged for a closer look

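Of the 25 sequences called in PC-48/PC-0, 13 had a 48 h response that differed between the lines beyond counting error, with 1 library per line and time, so that no spread between libraries enters the interval and the difference was not tested against one. Each value is the PC ratio over the P15 ratio. It was 0.682 for miR166k-5p, 0.551 for miR166l-5p, 0.40 for miR167a-3p and 0.224 for miR167c-3p. It was 0.384 for miR169r-3p, 0.497 for miR171e-5p, 0.259 for miR171i-5p and 0.709 for miR396c-3p. It was 0.319 for miR3980a-3p, 0.601 for miR399d and 0.653 for miR399j. Above 1 were miR398b at 2.72 and miR528-3p at 2.24. The sequences were chosen by their change in PC, which moves such values away from 1. Sequences that were not called also had intervals that left out 1. Among them were miR166g-3p at 0.823 (0.816 to 0.830), miR1883a at 0.582 (0.522 to 0.649) and miR156d at 1.31 (1.28 to 1.34). The share over all sequences was not counted, so the 13 are not set apart from the rest.

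Outside the known rice miRNAs, 192 entries matched to other plants or predicted by the authors had at least 20 reads in PC-0 or PC-48. By the same thresholds, 5 of the 192 were called higher and 12 lower in PC-48. Of the 151 known sequences with that many reads, 2.65% were called higher and 10.6% lower. Only the 5 higher entries are described here. MIR8016-y (18 nt) had 0 reads in PC-0, 0 in PC-6 and 33 in PC-48, at least 11.5-fold higher in PC-48 against the 3-read limit, and 2, 1 and 7 reads in P15 at 0, 6 and 48 h. MIR3981-y (18 nt) had 27 reads in PC-0 and 54 in PC-48, a ratio of 2.09 (1.30 to 3.46). In P15 it had 23 reads at 0 h and 21 at 48 h. Its sequence overlaps that of the known rice miR3981-3p, which went the other way in PC and was not called. miR3981-3p had 48 and 34 reads, a ratio of 0.742 (0.4635 to 1.175). The predicted m0490-5p had 22 and 53 reads, a ratio of 2.52 (1.51 to 4.36), m0322-3p 20 and 42 reads, a ratio of 2.20 (1.26 to 3.95), and m0460-5p 8 and 22 reads, a ratio of 2.88 (1.24 to 7.48).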

How the results depend on the processing

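No paired analysis was possible because each group has 1 library and the labels give no replicate numbers. Of the 25 calls, 18 remained under all 3 other scalings, and no called sequence changed direction. With a biological coefficient of variation of 0.2, 19 remained, and with 0.4, 9 remained: miR1320-3p, miR1320-5p, miR169r-3p, miR171e-5p, miR171i-5p, miR3980a-3p, miR398b, miR399d and miR528-5p, which were called under all of these settings. The 6 up-regulated became 13 with a 1.5-fold threshold and 11 with totals that leave out miR166a-3p and miR166g-3p. The 19 down-regulated became 12 with TMM and 12 with those totals, 5 with the coefficient of variation of 0.4, 9 without star strands and 41 with every entry counted. The totals without the miR166 guides, tested with an exact binomial test, and the count without star strands were chosen after seeing the data. The median log2 fold change was 0.05 with TMM and -0.19 when clean reads served as totals. The additive fit called 0 sequences, 6 with every entry counted (miR1320-3p, miR166c-5p, miR169r-3p, miR398b, miR399d and miR528-5p), 1 with DESeq2 and 0 to 13 when each library was left out in turn. Sequences with under 10 reads or none in a library, 165 of 337 in PC-0 and 173 in PC-48, could show only large changes. Causes were not tested.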

Other observations

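Of the 24-nt sequences with at least 20 reads, 21 of 33 had a ratio below 1 in PC-48/PC-0. Of the 151 sequences of any length with that many reads, 60.3% did. The median log2 fold change was -0.07 over the 33 and -0.09 over the 151. miR1883a, shared by 2 entries, had 1914 reads in PC-0, 1586 in PC-6 and 1074 in PC-48. Its ratio to PC-0 was 0.588 (0.545 to 0.634, 95% counting interval), but a ratio of 1.01 in P15. miR1423-5p had 1558 and 1020 reads, a ratio of 0.686 (0.633 to 0.742), and miR1863c 103 and 57 reads, a ratio of 0.580 (0.412 to 0.809). miR1863a had 63 and 101 reads, a ratio of 1.68 (1.21 to 2.34), and 1.80 in P15. miR5794, a 21-nt sequence, had 654, 760 and 940 reads in PC at 0, 6 and 48 h, a ratio of 1.51 (1.36 to 1.67), and 1.51 in P15. None of these 5 passed the 2-fold threshold, and miRNAs outside the lists were named here after their values were seen.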
